A study of Homo sapiens with 9 samples.

Results

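The neural adhesion molecules described here were 10 genes whose proteins sit on the cell surface and hold neurons, glia and their synapses together. They were NCAM1, NCAM2, DSCAM, KIRREL3, NRCAM, NFASC, CNTN1, CADM1, TENM3 and SLITRK1. They were chosen by gene symbol from a count table of 58884 genes, and NCAM2, DSCAM, KIRREL3 and SLITRK1 were selected partly on their higher counts in BrM2. All BrM2 against Par values of the 10 genes, and the BrM2 against LM2 values of those 4, are therefore given as a description and without a test. The name of the group holds only in part. The first 8 genes encode proteins with immunoglobulin domains, whereas TENM3 is a teneurin and SLITRK1 carries leucine-rich repeats.

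The study compared MDA-MB-231, a claudin-low human breast cancer cell line (referred to as Par), with sub-populations of it that were selected in mice for a higher capacity to colonize the lung (LM2) or the brain (BrM2). RNA-seq was performed on 3 replicates of each line, harvested at different passages, for 9 libraries in all. All lines were grown without treatment as monolayers in serum-containing DMEM for 3 days, so no library comes from a metastasis. LM2 and BrM2 are each 1 selected derivative of Par, and p-values measure the spread between replicates of these lines. Part of that spread was shared by same-numbered replicates of the lines. A fit with the replicate number as a block, given beside some tests, takes the shared part out. The libraries held between 14371858 and 24511786 counts in genes, and the lowest total was that of BrM2 replicate 1. Levels are given as CPM, read counts relative to the normalized size of the library, and 3 counts in a library correspond to between 0.115 and 0.221 CPM.

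The libraries carried the markers of the line. All 6 chosen markers of MDA-MB-231 (VIM, CD44, KRT18, AXL, MSN and LGALS1) were expressed in each line, with summed levels between 4340 and 8610 CPM. The 8 neuronal markers summed to between 3.09 and 5.63 CPM in BrM2, between 8.56 and 14.3 CPM in LM2 and between 5.24 and 8.86 CPM in Par, and STMN2 and NEFL were at 0 in all 9 libraries. The 6 glial markers summed to between 143 and 155 CPM in BrM2, between 110 and 120 CPM in LM2 and between 175 and 193 CPM in Par. Most of each sum was MBP, with means of 141, 102 and 167 CPM in that order. GFAP was also above 1 CPM, and OLIG2 was at 0. Neuroendocrine markers summed to between 2.43 and 5.24 CPM in BrM2, between 9.7 and 17.1 CPM in LM2 and between 13.5 and 15.2 CPM in Par, with INSM1 at 0. Leukocyte markers reached at most 0.44 CPM in any library. The levels are from bulk RNA, in which more cells with a transcript and more transcript per cell cannot be told apart.

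Cell adhesion molecules of this kind bind a copy of themselves or a partner on a neighbouring cell, and many signal inward through their cytoplasmic tails. In the nervous system they guide axons, set which neurites may touch, organize nodes of Ranvier and pair the sides of a synapse. NCAM1 and NCAM2 are neural cell adhesion molecules, DSCAM directs the self-avoidance of neurites, and KIRREL3 is a nephrin-like protein of synapses. NRCAM and NFASC belong to the L1 family, CNTN1 is a contactin anchored to the membrane by a lipid, and CADM1 is a synaptic and epithelial adhesion molecule.

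NCAM2, DSCAM, KIRREL3 and SLITRK1 had their highest levels in BrM2. DSCAM, KIRREL3 and SLITRK1 were at 8 counts or fewer in every Par and LM2 library, whereas NCAM2 was detected in Par and had no counts in LM2. The windows below are 300 bases around, and mostly upstream of, an annotated RefSeq start of each gene (GRCh38.p14), written 5′ to 3′ on the gene's strand, and are shown because these genes are high together in one line. Capitals mark E-boxes (CANNTG) and the parts CAGCACC and GGACAG of the RE1 element of the neuronal repressor REST, the last of which reads CTGTCC on the other strand. The windows are chr21:21146912-21147211 on the plus strand for NCAM2, and chr21:40847109-40847408, chr11:127003345-127003644 and chr13:83882344-83882643 on the minus strand for DSCAM, KIRREL3 and SLITRK1 (of 2 overlapping windows of SLITRK1, 1 is shown).
NCAM2: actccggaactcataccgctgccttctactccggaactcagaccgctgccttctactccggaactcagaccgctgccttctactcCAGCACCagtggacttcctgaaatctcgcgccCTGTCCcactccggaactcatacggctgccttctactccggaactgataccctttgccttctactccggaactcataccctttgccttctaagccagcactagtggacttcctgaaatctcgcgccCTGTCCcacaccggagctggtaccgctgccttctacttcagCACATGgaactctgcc
DSCAM: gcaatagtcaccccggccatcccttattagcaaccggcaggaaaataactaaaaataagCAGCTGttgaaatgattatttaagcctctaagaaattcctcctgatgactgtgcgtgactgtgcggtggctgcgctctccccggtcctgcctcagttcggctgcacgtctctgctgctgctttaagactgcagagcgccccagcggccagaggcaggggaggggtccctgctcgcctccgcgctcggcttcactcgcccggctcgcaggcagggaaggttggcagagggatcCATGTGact
KIRREL3: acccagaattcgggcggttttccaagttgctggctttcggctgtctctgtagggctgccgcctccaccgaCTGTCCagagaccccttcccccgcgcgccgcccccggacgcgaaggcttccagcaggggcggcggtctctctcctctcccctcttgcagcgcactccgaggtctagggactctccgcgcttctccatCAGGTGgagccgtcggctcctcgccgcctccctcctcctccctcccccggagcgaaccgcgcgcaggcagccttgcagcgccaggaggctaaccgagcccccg
SLITRK1: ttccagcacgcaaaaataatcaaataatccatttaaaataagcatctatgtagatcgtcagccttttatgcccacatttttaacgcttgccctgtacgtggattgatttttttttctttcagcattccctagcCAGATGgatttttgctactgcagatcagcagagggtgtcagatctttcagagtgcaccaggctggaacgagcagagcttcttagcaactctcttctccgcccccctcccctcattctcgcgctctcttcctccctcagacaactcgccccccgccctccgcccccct

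The NCAM2 window lies inside the gene, which spans chr21:20998409-21543329, and it held 1 CAGCACC and 2 CTGTCC. The KIRREL3 window held 1 CTGTCC. Its GC content was 69.7% against a median of 58.7% over 35116 promoter windows of the same length. The DSCAM window held 2 E-boxes, and the other 3 windows held 1 each. Over all promoter windows and both strands, 68.7% held an E-box, 7.75% held CAGCACC and 20.5% held the other part of RE1. The TATA box, TATAAA, present in 11.5% of all windows, and the AP-1 sequence TGANTCA, present in 7.71%, were in none of the 4 windows shown. A match of these letters is a description of the window and not a binding site.

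NCAM2 (ENSG00000154654) was detected in Par, absent from the LM2 libraries and high in BrM2. It was at 0.681, 1.06 and 0.901 CPM in Par replicates 1, 2 and 3, from 13 to 23 counts. None was counted in any LM2 library, where 3 counts would have been between 0.115 and 0.148 CPM. It was at 5.89, 17.8 and 16.1 CPM in BrM2, from 80 to 405 counts. The lines did not overlap, and BrM2 replicate 1 was the lowest of its line by a wide margin. Against Par, NCAM2 was at least 6.86-fold lower in LM2 (quasi-likelihood test in edgeR, Benjamini-Hochberg adjusted p = 0.0071). NCAM2 entered this test only because its BrM2 counts passed the filter on low counts. It also passed the threshold in the fit without that filter (edgeR adjusted p = 1.8e-06). As a description, the mean of BrM2 was 15.1-fold that of Par and at least 104-fold that of LM2. The LM2 call was lost when replicate 2 or replicate 3 of all lines was left out (adjusted p = 0.13 and 0.12), and held without any single library. NCAM1 (ENSG00000149294, chr11:112961420-113278436), the founding member of the family, had 0 counts in all 9 libraries.

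DSCAM (ENSG00000171587, chr21:40010999-40847158) was at or under 2 counts outside BrM2, with 1, 1 and 2 in the Par and 1, 0 and 1 in the LM2 libraries. In BrM2 it was at 5.89, 7 and 6.88 CPM, from 80 to 159 counts. The 3 BrM2 libraries were thus close to one another and far above the other 6. As a description, the ratio of summed counts scaled to library size was 109 against Par (95% counting interval 42.3 to 403) and 237 against LM2 (65.3 to 1970). These intervals cover counting error only and take no account of the selection of DSCAM partly on its BrM2 counts.

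KIRREL3 (ENSG00000149571, chr11:126423358-127003394) was detected at a low level in every library. It was at 0.262, 0.338 and 0.157 CPM in Par and at 0.396, 0.285 and 0.229 CPM in LM2, from 4 to 8 counts. In BrM2 it reached 34.1, 14.6 and 18.3 CPM, from 331 to 464 counts. Par and LM2 overlapped, and the highest BrM2 value was that of replicate 1, the reverse of NCAM2. The log2 fold change of LM2 against Par was 0.27 (SE 0.53, 95% interval −0.78 to 1.31, edgeR adjusted p = 0.87). KIRREL3, too, passed the filter on low counts only through BrM2. The mean of BrM2 was 88.5-fold that of Par and 73.6-fold that of LM2.

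SLITRK1 (ENSG00000178235, chr13:83877205-83882474), a leucine-rich-repeat protein of postsynaptic membranes that promotes synapse formation, had 0 counts in all 6 Par and LM2 libraries. It was at 8.39, 10.4 and 11.8 CPM in BrM2, from 114 to 248 counts. Its mean in BrM2, 10.2 CPM ± 1.74 (SD, n = 3), was at least 73.1-fold that of Par and at least 79.6-fold that of LM2.

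**Figure D1:**
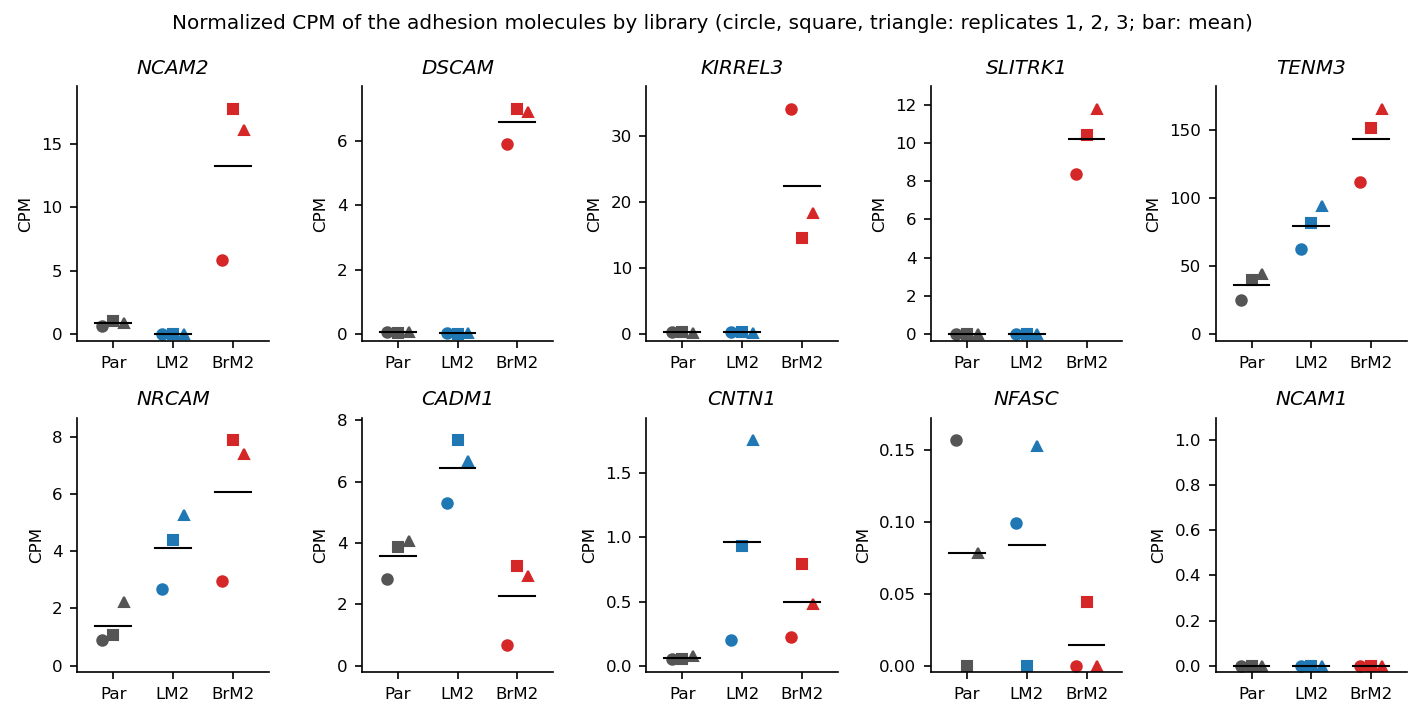
Normalized CPM (y axis, linear, a scale of its own for each gene) of the 10 adhesion molecules in the 3 Par, 3 LM2 and 3 BrM2 libraries (x axis); circles, squares and triangles are replicates 1, 2 and 3 and bars are means. SLITRK1 is at 0 outside BrM2, where its mean is 10.2 CPM, whereas TENM3 has means of 36.5, 79.7 and 143 CPM in Par, LM2 and BrM2.

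Among the members that were not included for a high level in BrM2, TENM3 was the most abundant and was higher in both sub-populations than in Par. TENM3 (ENSG00000218336, chr4:181447613-182803024) encodes a teneurin, a transmembrane protein that pairs neurons by binding teneurins or latrophilins. It was at 25, 39.9 and 44.6 CPM in Par, at 63, 81.5 and 94.6 CPM in LM2 and at 112, 152 and 166 CPM in BrM2. The lines did not overlap, and replicate 1 was the lowest in each line. TENM3 rose in LM2 against Par by a log2 fold change of 1.13 (SE 0.28, edgeR adjusted p = 0.037). The call was lost when any one of 7 libraries was left out, namely Par replicates 1, 2 and 3 or replicates 2 and 3 of LM2 or BrM2 (adjusted p from 0.05, a rounded value above the threshold, to 0.13). BrM2 against LM2 gave a log2 fold change of 0.85 (SE 0.27, adjusted p = 0.11), and the difference passed the threshold with the replicate number as a block (adjusted p = 0.00024). Against Par the BrM2 mean was 3.92-fold higher, as a description. An antisense gene, TENM3-AS1, shares 115 exonic bases with TENM3, and its counts also went from between 10 and 29 in Par to between 74 and 88 in LM2 and between 93 and 198 in BrM2. They equalled at most 6.6% of the TENM3 count of a library, and which strand was counted is not given in the sources used here.

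NRCAM (ENSG00000091129, chr7:108147649-108456720), which clusters sodium channels at nodes of Ranvier, was at 0.89, 1.06 and 2.23 CPM in Par. It was at 2.67, 4.39 and 5.27 CPM in LM2 and at 2.94, 7.88 and 7.41 CPM in BrM2. All 3 LM2 libraries were above the 3 Par libraries, and LM2 and BrM2 overlapped. The log2 fold change of LM2 against Par was 1.54 (SE 0.49, edgeR adjusted p = 0.098). It passed the threshold with the replicate block (adjusted p = 0.001) and without BrM2 replicate 1 (0.049), but without no other single library. It also passed by DESeq2 (adjusted p = 0.016), and in edgeR without the filter (0.024) and without replicate 1 of all lines (0.0085). The threshold was not passed with RLE normalization (0.087), with filterByExpr (0.085), or without replicate 2 or replicate 3 of all lines (0.76 and 0.3). BrM2 against LM2 gave 0.57 (SE 0.47, 95% interval −0.35 to 1.48, adjusted p = 0.58). The BrM2 mean was 4.36-fold that of Par.

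CADM1 (ENSG00000182985, chr11:115169236-115504415) had its highest level in LM2, unlike the members above. It was at 2.83, 3.86 and 4.07 CPM in Par, at 5.3, 7.36 and 6.68 CPM in LM2 and at 0.662, 3.26 and 2.91 CPM in BrM2. The LM2 libraries were above all others, and Par and BrM2 overlapped. The log2 fold change of LM2 against Par was 0.84 (SE 0.46, edgeR adjusted p = 0.37; 0.033 with the replicate block). That of BrM2 against LM2 was −1.47 (SE 0.47, adjusted p = 0.1; 0.0022 with the replicate block). BrM2 replicate 1, with 9 counts, was the lowest library, and without it the log2 fold change was −1.06 (adjusted p = 0.066). The mean of BrM2 was 0.635-fold that of Par.

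CNTN1 (ENSG00000018236, chr12:40692439-41072415) and NFASC (ENSG00000163531, chr1:204828652-205022822) did not pass the filter on low counts and were not tested with it. The counts of CNTN1 were 1, 1 and 2 in Par, 4, 23 and 46 in LM2 and 3, 18 and 10 in BrM2. All libraries of both sub-populations were above those of Par, and replicate 1 was the lowest of each. The ratio of summed counts scaled to library size was 16.8 for LM2 against Par (95% counting interval 6.29 to 63.3) and 0.527 for BrM2 against LM2 (0.334 to 0.812). As a description, it was 8.85 for BrM2 against Par (3.13 to 34.5). CNTN1 passed the threshold in LM2 against Par when the fit had no filter (log2 fold change 3.88, edgeR adjusted p = 0.0007) and with filterByExpr as the filter (3.89, adjusted p = 0.026). In BrM2 against LM2 it passed in neither fit (log2 fold change −0.9 in each, edgeR adjusted p = 0.57 and 0.51), and the libraries of these lines overlapped. The counting intervals leave out the spread between libraries. NFASC, an organizer of nodes and axon initial segments, had between 0 and 4 counts in every library.

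In the comparison of LM2 with Par, which did not enter the choice of members but shares its Par libraries, 7 of the 10 members passed the filter and 2 passed the threshold, NCAM2 lower and TENM3 higher. Of all 13001 genes tested, 8.65% passed, 4.17% higher and 4.48% lower in LM2. The 4 members high in BrM2 had passed the filter only through that line, and DSCAM and SLITRK1 were at 2 counts or fewer in every Par and LM2 library. Counts of members called in this comparison, with or without the replicate block, therefore cannot be read against the shares of all genes. With the replicate block, NRCAM and CADM1 passed as well, which made 4 members, where 34.5% of all genes passed. In BrM2 against LM2, 3 of the 6 other members were tested and 0 passed in edgeR, against 8.08% of all genes (4.08% higher and 4% lower in BrM2). Of these 3, 2 (TENM3 and CADM1) had an unadjusted p under 0.05, and the same number passed with the block, where 37.5% of all genes did, and by DESeq2. The median log2 fold change of all genes tested was 0.01 in LM2 against Par and −0.03 in BrM2 against LM2.

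**Figure D2:**
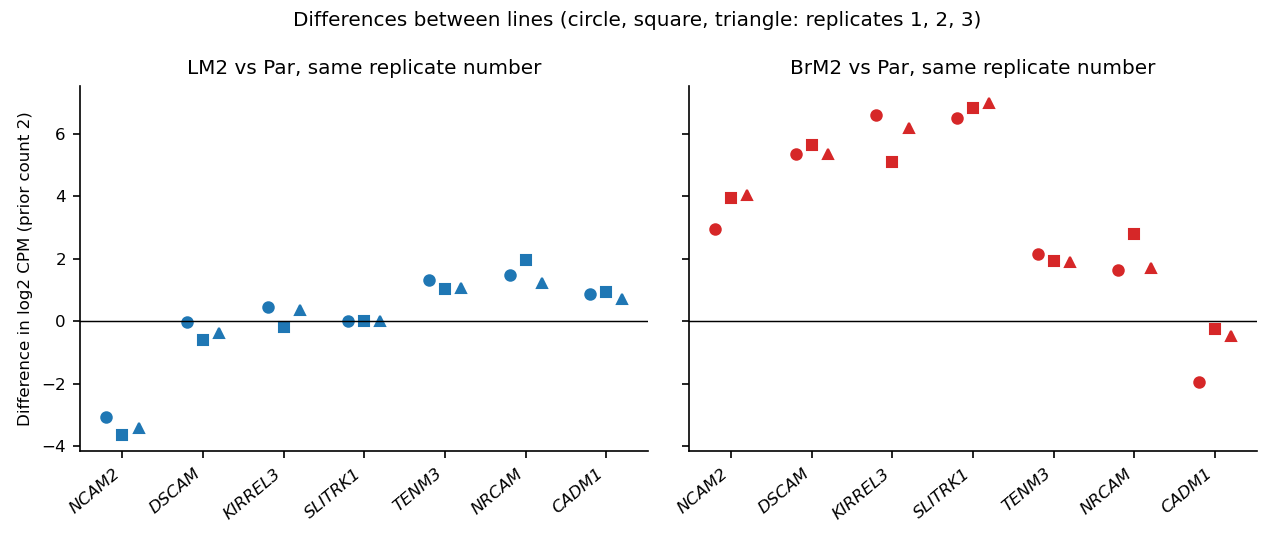
Difference in log2 CPM (y axis, prior count 2) between LM2 and Par (left) and between BrM2 and Par (right) within each replicate number for the 7 members that passed the filter (x axis); circles, squares and triangles are replicates 1, 2 and 3. For TENM3 the LM2 differences are 1.33, 1.03 and 1.08, and for NCAM2 they are −3.06, −3.63 and −3.42.

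Levels of different genes were compared as CPM per kilobase of exons. In Par, TENM3 stood first at 3.04 ± 0.853 (SD, n = 3), above CADM1 at 0.327 ± 0.0607, NRCAM at 0.175 ± 0.0917 and NCAM2 at 0.106 ± 0.0231. TENM3 did not overlap the others, whereas CADM1 overlapped NRCAM and NRCAM overlapped NCAM2. In LM2 the order was TENM3 (6.64 ± 1.32), CADM1 (0.587 ± 0.096), NRCAM (0.516 ± 0.166), CNTN1 (0.126 ± 0.102) and KIRREL3 (0.046 ± 0.0129), and CADM1 and NRCAM again overlapped, as did CNTN1 and KIRREL3.

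In BrM2 the members included for that line took the places below TENM3 (11.9 ± 2.33). KIRREL3 was at 3.38 ± 1.58, SLITRK1 at 1.94 ± 0.33, NCAM2 at 1.6 ± 0.78 and DSCAM at 0.766 ± 0.071 CPM per kilobase. NRCAM followed at 0.762 ± 0.341, then CADM1 at 0.208 ± 0.128 and CNTN1 at 0.065 ± 0.0374. Each neighbour from KIRREL3 to NRCAM overlapped the next, so the order of neighbours is not set beyond the spread of the libraries. KIRREL3 was above NCAM2, DSCAM and NRCAM without overlap, and SLITRK1 was above DSCAM and NRCAM without overlap. TENM3 was above KIRREL3 and NRCAM above CADM1 without overlap.

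**Figure D3:**
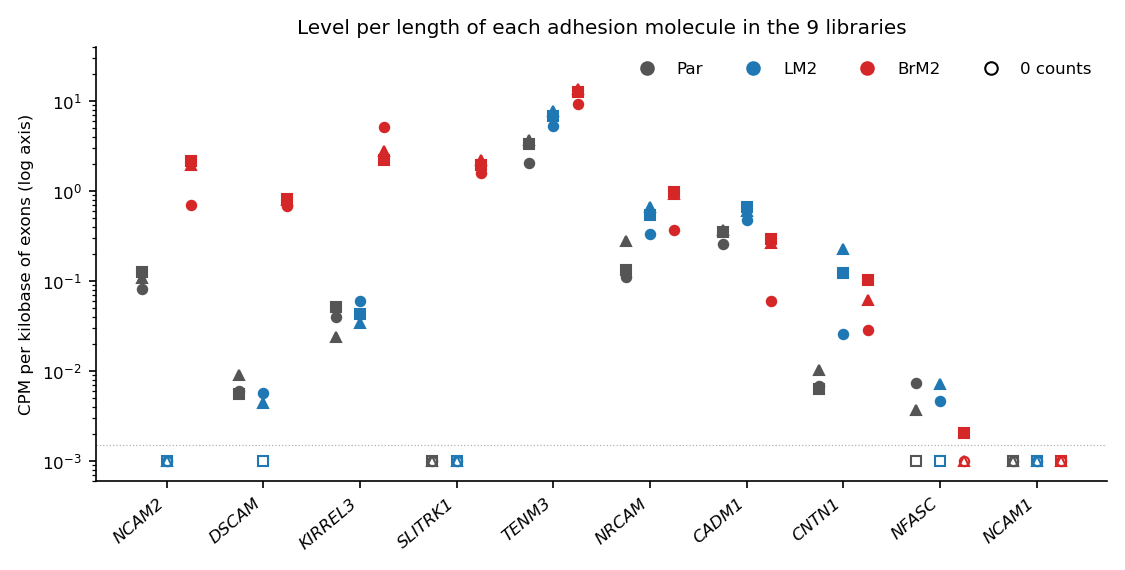
CPM per kilobase of exons (y axis, log scale) of each member (x axis) in the 9 libraries; open symbols under the dotted line are libraries with 0 counts, and circles, squares and triangles are replicates 1, 2 and 3. TENM3 lies above the other members in each line, and DSCAM spans 0.685 to 0.814 in BrM2.

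The first replicates of the 3 lines differed from the others along the GC content of transcripts. Over 12935 genes, the log2 difference of replicate 1 from the mean of replicates 2 and 3, averaged over the lines, had a Spearman correlation of 0.82 with GC content. These points share the same 9 libraries. KIRREL3, at 57.8% GC, was higher in replicate 1 by 0.55 on this scale. It was −0.66 for NCAM2 (35.7% GC), −0.97 for NRCAM (41.5%), −0.98 for CADM1 (45.2%) and −0.58 for TENM3 (47.5%). SLITRK1 (47.6%) and DSCAM (51.9%) were at −0.13 and 0.01. Within BrM2 the values were 1.06 for KIRREL3, −1.51 for NCAM2, −1.35 for NRCAM, −2.07 for CADM1, −0.5 for TENM3, −0.4 for SLITRK1 and −0.23 for DSCAM. The averages over the lines for NCAM2 and SLITRK1 include lines with no counts, where the difference is 0. Among the members, the shifts rose with GC content from CADM1 through TENM3, SLITRK1 and DSCAM to KIRREL3, both averaged and within BrM2. NCAM2 and NRCAM, lower still in GC content, did not lie below CADM1. The part of GC content in this spread was not tested. Without replicate 1 of all lines, 4 members passed in LM2 against Par, where 4301 of all genes passed in place of 1125.

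**Figure D4:**
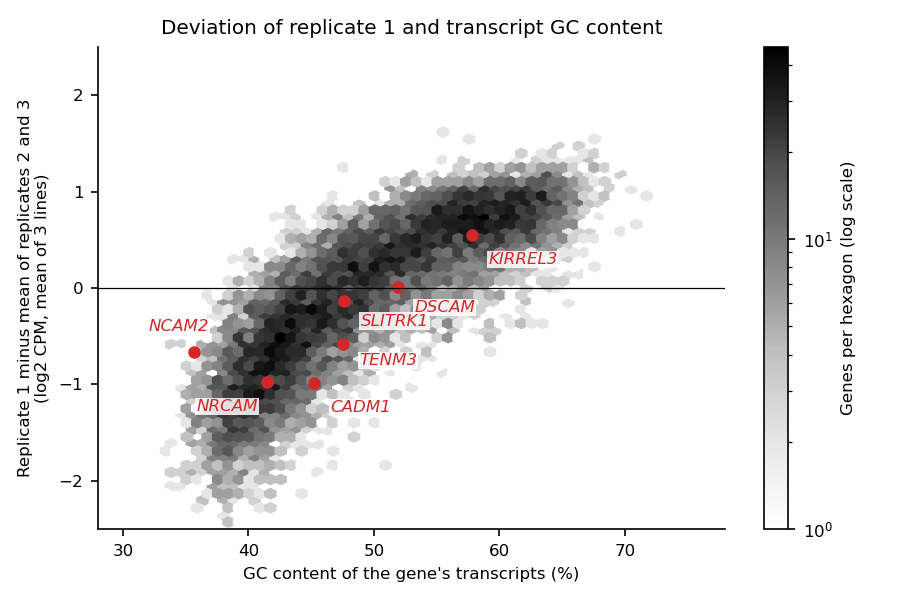
Log2 CPM of replicate 1 minus the mean of replicates 2 and 3, averaged over 3 lines (y axis), against the GC content of the transcripts (x axis, %); grey hexagons count 12935 genes and red points are the 7 members that passed the filter. KIRREL3, at 57.8% GC, lies at 0.55 and NRCAM, at 41.5%, at −0.97.

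The relatives of the members, 21 further genes of the same families, were next compared. Of these, 8 passed the filter, and 5 of the 8 rose in LM2 and 5 in BrM2 against Par, where 4.17% of all genes rose in LM2 and 6.25% in BrM2. None of the 8 fell in either comparison. The genes that rose were TENM1, TENM2, TENM4, CNTN5 and SLITRK5, in comparisons that share the Par libraries, and all but SLITRK5 passed the filter only through a line in which they were high. The count of 5 is therefore set in part by the filter and cannot be read against these shares. With CNTN5 and TENM4, which were at 0 in Par, set at their bound, the median log2 fold change of the 8 was 0.99 in LM2 and 3.12 in BrM2. Without them it was 0.95 and 0.61, and for all genes it was 0.01 and −0.02.

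The 3 teneurins beside TENM3 rose in both sub-populations. TENM1 was at 0.105, 0.241 and 0.274 CPM in Par, at 5.49, 16.2 and 15.8 CPM in LM2 and at 8.02, 22.4 and 22.4 CPM in BrM2. Its log2 fold changes against Par were 5.85 (SE 0.68, edgeR adjusted p = 0.001) in LM2 and 6.35 (SE 0.69, adjusted p = 0.00048) in BrM2, and the difference between BrM2 and LM2 passed with the replicate block (log2 fold change 0.5, adjusted p = 0.66; 0.016 with the block). The counts of TENM2 were 0, 2 and 1 in Par, 6, 18 and 31 in LM2 and 150, 268 and 290 in BrM2, with a ratio of counts to Par of 16.9 (95% counting interval 5.48 to 84.4) in LM2 and 269 (91.8 to 1310) in BrM2. Its LM2 call was lost without Par replicate 3 (adjusted p = 0.057). The Par libraries held 0 counts of TENM4, LM2 between 4 and 9 and BrM2 between 73 and 117, and its BrM2 mean was at least 34.8-fold that of Par. In BrM2 against LM2 3 of the 8 relatives rose, with the same limit set by the filter, where 4.08% of all genes did. Of these, TENM2 and TENM4 rose by log2 fold changes of 4.02 (SE 0.49, adjusted p = 0.0013) and 4.14 (SE 0.42, adjusted p = 0.0015).

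CNTN5, a contactin of auditory neurons, was at 0 in Par and reached 2, 8 and 11 counts in the LM2 and 53, 172 and 170 in the BrM2 libraries. Its BrM2 mean was at least 46.7-fold that of Par (edgeR adjusted p = 0.00066), and BrM2 exceeded LM2 by a log2 fold change of 4.47 (SE 0.54, adjusted p = 0.0033). Its LM2 mean was at least 2.01-fold that of Par (adjusted p = 0.036), a call lost without any one of Par replicates 1, 2 and 3 or replicates 2 and 3 of LM2 or BrM2 (adjusted p from 0.058 to 0.1). SLITRK5 averaged 3.37 CPM in Par, 12 CPM in LM2 and 7.33 CPM in BrM2, so that, unlike SLITRK1, its mean was highest in LM2. Its log2 fold changes against Par were 1.83 (SE 0.23, adjusted p = 0.0015) and 1.12 (SE 0.23, adjusted p = 0.012), the latter lost without Par replicate 2 or BrM2 replicate 3 (adjusted p from 0.053 to 0.056).

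KIRREL1, L1CAM and CADM4 did not pass the threshold in any comparison without the replicate block. KIRREL1 averaged 240 CPM in Par, 209 CPM in LM2 and 163 CPM in BrM2, and its log2 fold change of BrM2 against Par was −0.56 (SE 0.17, edgeR adjusted p = 0.071; 0.0017 with the replicate block; 0.033 without LM2 replicate 1). L1CAM, the founding L1-family protein, averaged 153, 120 and 111 CPM in the same order (log2 fold change of BrM2 against Par −0.46, SE 0.28, adjusted p = 0.36; 0.029 with the block). CADM4 averaged 4.68, 4.92 and 5 CPM in that order. With the block, 5 relatives passed in LM2 and 7 in BrM2 against Par, where 34.5% and 42.7% of all genes passed.

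Of 21 surface partners, which are receptors and ligands that bind the members on a facing cell or in the same membrane, 10 passed the filter. In LM2 against Par 0 rose and 2 fell, where 4.17% of all genes rose and 4.48% fell. In BrM2 against Par 2 rose and 2 fell, against 6.25% and 6.99% of all genes. CRTAM, the receptor of lymphocytes that binds CADM1, was at 3.19, 4.15 and 5.52 CPM in Par. Its counts were 4, 9 and 4 in LM2 and 0, 5 and 1 in BrM2, for a count ratio of Par to LM2 of 18.4 (95% counting interval 11.3 to 32) and of Par to BrM2 of 42 (19.1 to 116). It fell in both lines (edgeR adjusted p = 0.0022 and 0.00086). CRTAM passed the filter only through Par, where it was high. Counts of partners that fell against Par, with or without the replicate block, therefore cannot be read against the shares of all genes. NRP2, a semaphorin receptor that can pair with NRCAM, fell in LM2 (log2 fold change −1.15, SE 0.19, adjusted p = 0.006) and in BrM2 (−0.73, SE 0.19, adjusted p = 0.034). The BrM2 call of NRP2 was lost without any one of Par replicates 1, 2 and 3, LM2 replicate 2 or BrM2 replicates 1, 2 and 3 (adjusted p from 0.056 to 0.13).

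CNTNAP1, the partner of CNTN1 beside the node of Ranvier, rose in BrM2 from a mean of 17 CPM in Par to 33.5 CPM (log2 fold change 0.98, SE 0.17, edgeR adjusted p = 0.0059). ADGRL1, a latrophilin that binds teneurins, rose from 23.3 CPM in Par to 46.6 CPM in BrM2 (1, SE 0.27, adjusted p = 0.039) and was at 19.2 CPM in LM2. Its call against Par was lost without any one of replicates 2 and 3 of Par or LM2, or of replicates 1 and 3 of BrM2 (adjusted p from 0.064 to 0.15). In BrM2 against LM2 2 partners rose and 0 fell, where 4.08% of all genes rose and 4% fell. In that comparison ADGRL1 rose by 1.28 (SE 0.27, adjusted p = 0.02) and PTPRF, a receptor phosphatase of the family that binds SLITRK proteins, by 1.24 (SE 0.31, adjusted p = 0.04). The ADGRL1 call was lost without LM2 replicate 2 or 3 or BrM2 replicate 3 (adjusted p from 0.069 to 0.099). That of PTPRF was lost without Par replicate 2, LM2 replicate 2 or 3, or any BrM2 replicate (adjusted p from 0.054 to 0.16). With the replicate block, 5, 7 and 7 of the 10 partners passed in LM2 against Par, BrM2 against Par and BrM2 against LM2, where 34.5%, 42.7% and 37.5% of all genes passed.

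Of 15 anchors and signalling proteins inside the cell, 14 passed the filter. In LM2 against Par 1 rose and 2 fell, where 4.17% of all genes rose and 4.48% fell. In BrM2 against Par 2 rose and 3 fell, against 6.25% and 6.99% of all genes, and in BrM2 against LM2 2 rose and 1 fell, against 4.08% and 4%. EPB41L3, the membrane skeleton protein 4.1B that binds CADM1, had few or no counts outside BrM2. Its counts were 0, 0 and 3 in Par, 0, 5 and 5 in LM2 and 220, 393 and 307 in BrM2. The ratio of counts was 350 against Par (95% counting interval 119 to 1700, edgeR adjusted p = 0.00028) and 114 against LM2 (61.7 to 239, adjusted p = 0.00054). EPB41L3 passed the filter only through BrM2. Counts of anchors that rose in BrM2, with or without the replicate block, therefore cannot be read against the shares of all genes. CASK, a scaffold that binds the CADM1 tail, averaged 106 CPM in Par, 31.9 CPM in LM2 and 35.6 CPM in BrM2. It fell by 1.73 (SE 0.33, adjusted p = 0.012) and by 1.57 (SE 0.33, adjusted p = 0.014) on the log2 scale, and both calls were lost without Par replicate 2 (adjusted p = 0.055 and 0.059).

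FYN, a kinase that signals downstream of NCAM proteins, rose in LM2 by 0.88 (SE 0.17, edgeR adjusted p = 0.011) and in BrM2 by 0.93 (SE 0.17, adjusted p = 0.0062) on the log2 scale. The LM2 call was lost without Par replicate 2 or 3 (adjusted p from 0.054 to 0.068). PAK1, a kinase linked to DSCAM signalling, fell in BrM2 by 0.74 against Par (adjusted p = 0.022) and by 1.16 against LM2 (adjusted p = 0.0038), and the former call was lost without any one of Par replicates 1, 2 and 3 or BrM2 replicates 2 and 3 (adjusted p from 0.053 to 0.11). SPTBN1, a spectrin, rose in BrM2 against LM2 by 0.73 (SE 0.16, adjusted p = 0.026), a call lost without replicate 2 or 3 of LM2 or BrM2 (adjusted p from 0.059 to 0.12). With the replicate block, 9, 6 and 6 of the 14 anchors passed in LM2 against Par, BrM2 against Par and BrM2 against LM2, or 64.3%, 42.9% and 42.9%, against 34.5%, 42.7% and 37.5% of all genes.

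Of 7 enzymes that modify or shed adhesion molecules, 6 passed the filter, and 0 passed the threshold in LM2 against Par in edgeR (0 by DESeq2, 0 at an unadjusted p under 0.05, and 3 with the replicate block). In BrM2 the β-secretases moved apart. BACE1 averaged 43.8 CPM in Par, 32.9 CPM in LM2 and 21.1 CPM in BrM2, and fell by 1.06 on the log2 scale in BrM2 against Par (SE 0.19, edgeR adjusted p = 0.0064). BACE2 averaged 95.3, 79.5 and 177 CPM, and rose in BrM2 by 0.9 against Par (SE 0.24, adjusted p = 0.041) and by 1.16 against LM2 (SE 0.24, adjusted p = 0.02). The BACE2 call against Par was lost without any one of Par replicates 2 and 3, LM2 replicates 2 and 3 or the BrM2 replicates (adjusted p from 0.057 to 0.17), and the one against LM2 without replicate 2 or 3 of LM2 or BrM2 (0.073 to 0.098). Over the 64 listed genes, 38 of which were tested, 10, 16 and 9 passed in LM2 against Par, BrM2 against Par and BrM2 against LM2, or 26.3%, 42.1% and 23.7%. Of all genes 8.65%, 13.2% and 8.08% passed, but TENM1, TENM2, TENM4, CNTN5, EPB41L3 and CRTAM passed the filter only through lines in which they were high, so these shares cannot be compared. With the replicate block these numbers were 22, 25 and 23, where 34.5%, 42.7% and 37.5% of all genes passed.

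**Figure D5:**
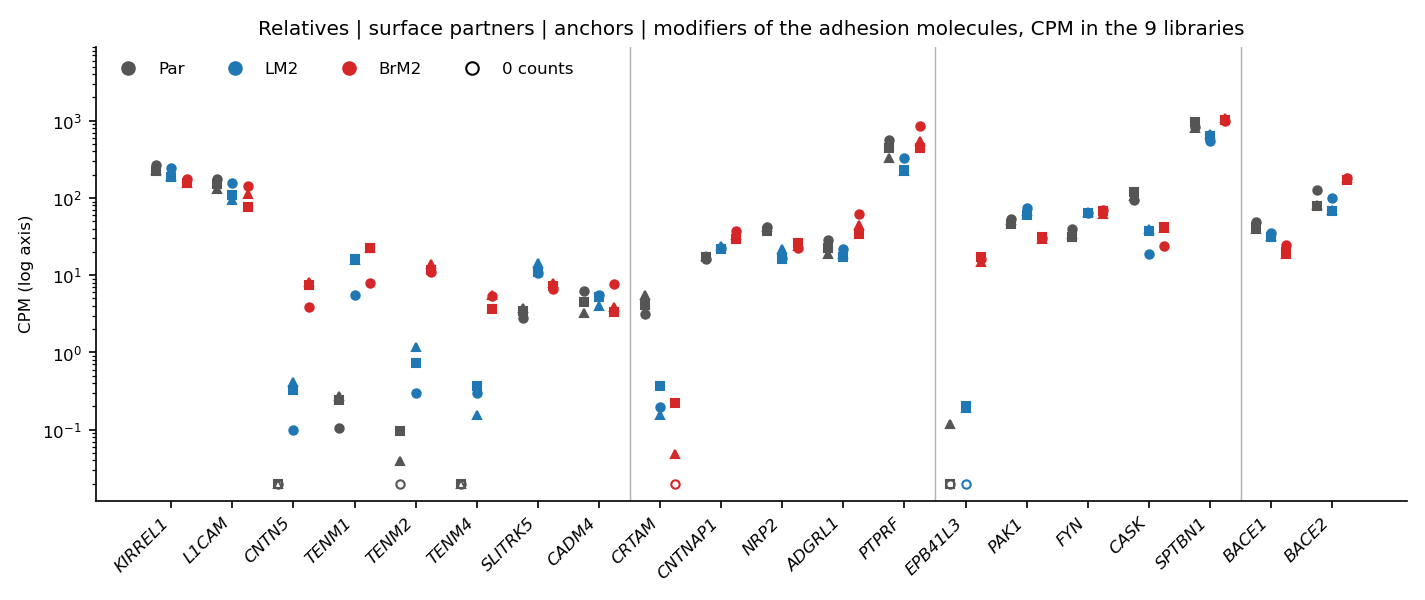
CPM (y axis, log scale) of the named relatives, surface partners, anchors and modifiers (x axis, separated by grey lines) in the 9 libraries; circles, squares and triangles are replicates 1, 2 and 3, and open symbols at the bottom are libraries with 0 counts. EPB41L3 lies between 14.7 and 17.3 CPM in BrM2 and at or under 0.203 CPM elsewhere.

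The genes with the levels most like those of the 4 members across the 9 libraries were found by the root mean square difference of centred log2 CPM. The nearest to NCAM2 were CCL2 (0.61), CXCR4 (0.65) and SLAMF7 (0.76), which, like NCAM2, were lowest in LM2. CXCR4, the chemokine receptor, averaged 4.01 CPM in Par, 0.306 CPM in LM2 and 40.8 CPM in BrM2. The nearest to DSCAM were ENSG00000276476 (0.31), LINC00648 (0.38) and NRXN3 (0.39), a presynaptic neurexin that averaged 5.48 CPM in BrM2 and at most 0.0392 CPM in the other lines. The nearest to KIRREL3 were GLB1L3 (0.53), ENSG00000276476 (0.53) and DSCAM (0.54). The nearest to SLITRK1 were ENSG00000263711 (0.5), GABRA3 (0.56), a subunit of GABA receptors that averaged 14.5 CPM in BrM2, and DSCAM (0.59). NCAM2 was closest to genes that were lower in LM2 than in Par, whereas the other 3 were closest to genes at or near 0 in both Par and LM2. These genes were picked for likeness in the same 9 libraries, so the shared pattern is a description and no separate support. DSCAM, KIRREL3 and SLITRK1 were each selected partly on BrM2, so their nearness to one another was set in part by that selection.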

How the data were processed

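RNA-seq libraries of 9 samples (3 replicates each of Par, LM2 and BrM2) were analyzed. The authors sequenced stranded mRNA libraries as paired ends, used STAR (version 2.7.0 in the submitters' processing notes) for alignment to hg38 and for read counting, and deposited the counts of each gene without normalization. Their deposited table of DESeq2 log2 fold changes and adjusted p-values was not used.

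Of 58887 rows, 3 repeated an identifier with the same counts and were dropped. A filter written after HTSFilter kept 13001 genes with a normalized count above 49.24 in at least 1 library, which hold between 99.64% and 99.77% of the counts. Lines were compared with edgeR 4.0.16 (TMM, 2-sided quasi-likelihood test, all 9 libraries, Benjamini-Hochberg adjusted p threshold of 0.05) in R 4.3.3. The code was tested on simulated data with less spread between libraries than these data had without the block, and with no shared deviation of replicates. That test therefore does not show how the comparisons perform at the spread of these libraries. CPM used TMM library sizes, and log2 CPM a prior count of 2. A line at 0 was set to a floor of 3 counts per library. Same-numbered replicates deviated together (correlations from 0.23 to 0.9 in 9 pairs), so a fit with the replicate number as a block is given beside a printed test whose call it changes, and as counts for the gene lists. Other alternatives were RLE normalization, no filter, filterByExpr, DESeq2 1.42.0 and leaving out libraries.

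Exon lengths, GC content and exon overlaps came from GENCODE annotation lifted to GRCh37, and positions and promoters from RefSeq (GRCh38.p14). All 10 members were matched in RefSeq, and at most 0.25% of a member's 50-base stretches occurred in another gene. The members and gene lists were chosen with earlier results of these data known. Named were all members, relatives with a mean of at least 1 CPM or past the threshold, up to 5 called genes of each other list by adjusted p, and the 3 nearest genes of each of NCAM2, DSCAM, KIRREL3 and SLITRK1. Depth sets the precision of low counts, and counting intervals cover counting error only.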

Additional observations from a re-analysis of the deposited data

Results flagged for a closer look

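NCAM2 moved in opposite directions in the sub-populations, with every LM2 library below and every BrM2 library above the Par libraries. Its BrM2 mean was at least 104-fold that of LM2, and this difference was not tested. NCAM2 was selected partly on its higher counts in BrM2, so the BrM2 side of this result was set in part by the selection. In 9 of the 38 listed genes tested the effect against Par differed between LM2 and BrM2 by the test of BrM2 against LM2 itself. Of all genes 8.08% passed that test. CNTN5, TENM2, TENM4 and EPB41L3 passed the filter only through BrM2, so the count of 9 cannot be read against this share. The calls of ADGRL1, PTPRF, BACE2 and SPTBN1 were each lost when certain single libraries were left out. The differences on the log2 scale were 4.47 for CNTN5, 4.02 for TENM2, 4.14 for TENM4, 6.8 for EPB41L3, 1.28 for ADGRL1, 1.24 for PTPRF, 1.16 for BACE2, 0.73 for SPTBN1 and −1.16 for PAK1.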

How the results depend on the processing

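The number of genes called in LM2 against Par was 1125, and it was 1885 by DESeq2, 4487 with the replicate block and between 70 and 4301 when replicates were left out. In BrM2 against Par it was 1721 (5551 with the replicate block, 158 to 5249 when replicates were left out), and in BrM2 against LM2 it was 1051 (1812 by DESeq2, 4880 with the replicate block, 53 to 4240). Members called in LM2 against Par went from 2 to 4 without the filter and with the replicate block, and ranged from 0 to 4 when replicates were left out. Without the filter, 1498 of 34056 genes were called in LM2 against Par and 1446 in BrM2 against LM2. With the filter, the member counts of LM2 against Par cannot be read against the numbers of all genes, as given above. Of the 6 other members in BrM2 against LM2, 0 were called, and 1 without the filter, 2 by DESeq2, 2 with the replicate block and from 0 to 2 when replicates were left out. Listed genes called ranged from 0 to 21, from 4 to 23 and from 0 to 20 in the same order of comparisons. With the replicate block they numbered 22, 25 and 23. Except for the count of 0, the lowest counts came without replicate 2 of all lines. Beyond the calls of NRCAM, CADM1 and TENM3 given above, the block changed no call of a member.

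Of 1362 values of single genes under alternatives, 14 changed direction, none of them a called value. KIRREL3 in LM2 against Par was at −0.01 without Par replicate 3, and up to 0.59 when other replicates were left out. L1CAM in BrM2 against LM2 was at 0.11, 0.08 and 0.04 without LM2 replicate 1, BrM2 replicate 2 and replicate 2. CADM4 was at −0.14 and −0.01 in LM2 against Par (up to 0.35 without other replicates), at −0.13, −0.36 and −0.06 in BrM2 against Par (up to 0.37), and at −0.06 (replicate block), −0.11, −0.44 and −0.34 in BrM2 against LM2 (up to 0.29). CASK in BrM2 against LM2 was at −0.11 without LM2 replicate 1, and up to 0.38 without others. The cause of these changes was not tested. With 9 libraries and counts under 10 in several lines, small differences in KIRREL3 and NFASC between Par and LM2 were not detectable at this depth.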
